A study of Homo sapiens with 6 samples.

Results

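The interferon regulatory factors IRF1, IRF2, IRF3, IRF4, IRF5, IRF7 and IRF8 and the kinase TBK1 were examined in RNA-seq libraries of HCT116, a human colorectal carcinoma cell line. They were the rows of the deposited table whose Ensembl identifiers map to those symbols, which gave 8 of the 60240 genes listed, and 6 of them were among the 17672 genes with enough counts to be tested. WT cells were parental HCT116 (3 libraries, replicates 1 to 3). LSD1 KO cells were HCT116 cells in which CRISPR/Cas9 had been directed at the first exon of LSD1, a histone H3K4 demethylase encoded by KDM1A (3 libraries, replicates 1 to 3). Cells were transfected with the Cas9 plasmid, selected briefly with puromycin and expanded as individual clones, and the sources used here do not say how many clones the 3 LSD1 KO libraries stand for. Both groups were grown untreated in McCoy's 5A medium with fetal bovine serum, and polyA RNA was sequenced. The comparison between them asks how the RNA of these genes differs in colorectal cancer cells without LSD1.

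Interferon regulatory factors share an N-terminal DNA-binding domain that recognises GAAA repeats in the promoters of interferons and interferon-stimulated genes. IRF3 and IRF7 lie inactive in the cytoplasm until sensors of viral RNA or DNA activate TBK1, which phosphorylates them and sends them to the nucleus. IRF1 is induced by interferon gamma through JAK kinases and by NF-kappaB, IRF2 competes with it for the same sites, IRF5 acts downstream of Toll-like receptors, and IRF4 and IRF8 are factors of lymphoid and myeloid cells. Much of this control acts on the proteins, which RNA-seq does not measure.

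Total counts ranged from 25379279 to 29186963 per library, and a count of 3, taken as the floor, stood for 0.103 to 0.118 CPM (counts relative to library size, with edgeR's TMM factors), which covers counting error only. KDM1A measured 231, 224 and 214 CPM in the WT libraries and 29.9, 27.6 and 27.8 CPM in the LSD1 KO libraries, so each library matched its label, and its log2 fold change was -2.97 (SE 0.15, q value 0.000451 from edgeR). Replicate 2 of both groups stood apart from the other libraries on the first principal component, which held 45.9% of the variance, at 50.5 and 58 against -51.1 to -6.91. Results were therefore read in a model without and a model with the replicate number as a block. Of 12 epithelial markers, 9 were tested and present in all 6 libraries, with 348 to 667 CPM of KRT18, a keratin of simple epithelia, and 12.2 to 21 CPM of CDX2, an intestinal transcription factor, while VIL1, CEACAM5 and LGALS4 lay at 0 to 0.378 CPM. The labels do not say whether the libraries of a group came from separate cultures, so p-values measure the spread between these libraries, which may be technical.

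The start regions of the genes are shown first, because the factors of this family bind promoters, those of their own genes included. RefSeq (GRCh38.p14) promoter entries were matched for 5 of the 8 genes, IRF1, IRF4, IRF5, IRF8 and TBK1. Shown here, 5′ to 3′ on the strand of the gene, are the 250 bases before the start of IRF1 (minus strand, chr5:132490774-132491023), IRF4 (plus strand, chr6:391502-391751) and TBK1 (plus strand, chr12:64451870-64452119), the 3 genes whose entry begins at the outermost start of the gene. Capitals mark matches to the motifs searched.
IRF1: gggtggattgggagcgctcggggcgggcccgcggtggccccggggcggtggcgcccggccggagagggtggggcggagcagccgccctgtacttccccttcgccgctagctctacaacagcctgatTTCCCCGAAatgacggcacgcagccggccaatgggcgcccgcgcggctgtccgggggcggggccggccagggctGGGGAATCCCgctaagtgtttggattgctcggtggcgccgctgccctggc
IRF4: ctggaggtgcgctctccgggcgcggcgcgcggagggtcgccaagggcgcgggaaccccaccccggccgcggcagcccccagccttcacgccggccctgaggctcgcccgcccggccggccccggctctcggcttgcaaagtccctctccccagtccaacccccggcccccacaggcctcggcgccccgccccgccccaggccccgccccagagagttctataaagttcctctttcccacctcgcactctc
TBK1: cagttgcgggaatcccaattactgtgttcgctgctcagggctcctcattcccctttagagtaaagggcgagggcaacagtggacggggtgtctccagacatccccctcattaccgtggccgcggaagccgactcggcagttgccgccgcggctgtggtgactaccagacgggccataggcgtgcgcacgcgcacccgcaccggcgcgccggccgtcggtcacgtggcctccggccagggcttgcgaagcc
The motif forms searched on both strands were GAAANNGAAA and the shorter AANNGAAA for IRF sites, which overlap by construction, TTCNNNGAA for STAT sites, and the NF-kappaB consensus. In the IRF1 window, TTCCCCGAA lay at positions -124 to -116 from the start site and GGGGAATCCC at -50 to -41, and both matched on both strands. Of 35116 promoter entries of the same length, 6.57% held TTCNNNGAA and 9.96% held the NF-kappaB consensus. The windows of IRF4 and TBK1 held none of the 4 forms. AANNGAAA, which 20.3% of all entries held, matched 1 of the 4 IRF5 entries and both IRF8 entries, and GAAANNGAAA, held by 3.02% of all entries, matched none of the 9 entries of these genes. All 3 windows shown were rich in CpG, with observed over expected ratios of 0.85 for IRF1, 0.833 for IRF4 and 0.968 for TBK1 against a median of 0.558 over all entries. IRF4 shared this composition with IRF1 and TBK1, although almost no counts fell on it. Among the entries not shown, those of IRF8 had ratios of 0.107 and 0.224, and those of IRF5 ranged from 0.139 to 0.797.

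Levels of the 8 genes were set beside each other per kilobase of the canonical transcript. IRF3 (chromosome 19, 49659572 to 49665857 on GRCh38.p14) was the most abundant, at 29.1, 49.2 and 34.8 CPM per kb in WT libraries and 34.4, 47.1 and 30.1 CPM per kb in LSD1 KO libraries. TBK1 (chromosome 12, 64452120 to 64502114) followed at 16.4 to 23.2 CPM per kb. In every library IRF3 lay above TBK1, with a ratio of means of 1.97, and TBK1 lay above IRF5, with a ratio of 2.58, and these ranges did not overlap. IRF5 (5.01 to 9.71 CPM per kb), IRF7 (5.62 to 8.81), IRF1 (5.07 to 8.26) and IRF2 (4.16 to 6.09) came next, and each overlapped its neighbour. IRF5 exceeded IRF7 in 4 of 6 libraries, IRF7 exceeded IRF1 in 5 of 6, and IRF1 exceeded IRF2 in 5 of 6. IRF4 averaged 0.0104 CPM per kb and IRF8 was at 0. The virus-activated pair of kinase and substrate was thus the most abundant of these mRNAs in both groups. When the longest transcript was taken as the length, IRF3 and TBK1 kept their places at 20.8 and 9.68 CPM per kb, while IRF5 moved behind IRF7 and IRF1 at 4.07 CPM per kb.

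**Figure D1:**
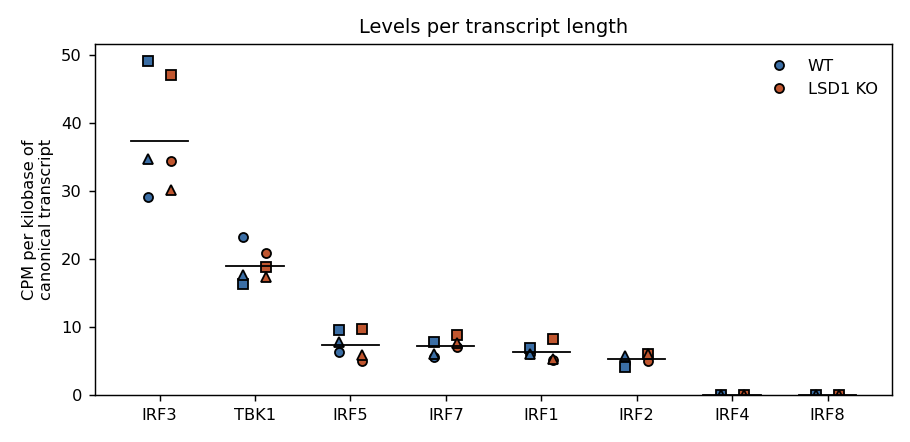
Level of each gene in CPM per kilobase of canonical transcript, with 1 point per library (circles, squares and triangles for replicates 1, 2 and 3), WT in blue and LSD1 KO in orange, and a line at the mean of the 6 libraries. IRF3 and TBK1 stand above the other genes in every library, IRF5, IRF7, IRF1 and IRF2 overlap between 4.16 and 9.71 CPM per kb, and IRF4 and IRF8 lie at or near 0.

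Between LSD1 KO and WT cells, edgeR's quasi-likelihood test without the block called 0 of these 6 genes at a q value under 0.1, beside 0.00566% of all genes, and 0 of the 6 had an unadjusted p under 0.05, beside 3.12% of all genes. That 0.00566% was 1 gene, KDM1A. With the replicate block the count was again 0 of 6, against 1.60% of all genes, and 1 gene, IRF7, had an unadjusted p under 0.05, as did 13.4% of all genes. DESeq2 called 0 of them as well, against 0.370% of its genes. For none of the 6 did the CPM values of the groups separate, which they did for 7.74% of all genes tested, 4.23% with LSD1 KO higher and 3.51% with LSD1 KO lower. The median log2 fold change of the 6 was -0.013 without the block and -0.0036 with it, beside 0.00082 and 0.003 over all genes. A missed threshold does not show equal levels. The 95% intervals without the block reached down to 0.563-fold, for IRF5, and up to 1.68-fold, for IRF7, and with the block they reached from 0.701-fold, for IRF5, to 1.49-fold, for IRF2.

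**Figure D2:**
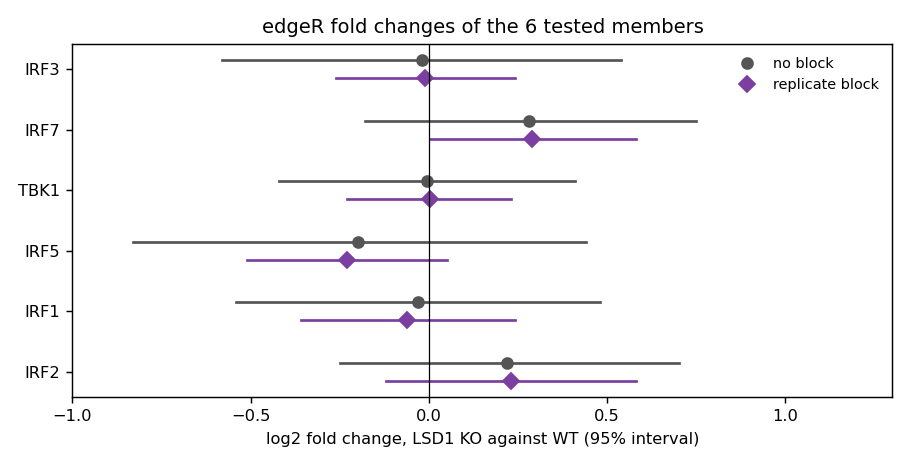
The log2 fold change of LSD1 KO against WT for the 6 genes tested (x axis), with 95% intervals from edgeR without the replicate block (grey circles) and with it (purple diamonds). All intervals without the block cross 0, and with the block that of IRF7 begins at 0.0035 and the others cross 0.

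IRF3, the factor that starts interferon beta transcription after virus sensing, measured 46.4, 78.5 and 55.4 CPM in WT libraries and 54.8, 75.1 and 48.0 CPM in LSD1 KO libraries. Replicate 2 was the highest library of either group, and the groups overlapped over nearly their whole range. Its log2 fold change was -0.019 (SE 0.24, 95% interval -0.58 to 0.54), and the block narrowed the interval to -0.26 to 0.24. TBK1, the kinase that phosphorylates it, measured 70.1, 49.5 and 53.5 CPM in WT libraries and 63.2, 56.9 and 52.1 CPM in LSD1 KO libraries. Here replicate 1 was the highest of each group. TBK1 had a log2 fold change of -0.0068 (SE 0.18, 95% interval -0.42 to 0.41), and the sign turned with the block, at 0.0042. IRF7 (chromosome 11, 612555 to 615950), which amplifies interferon alpha production and is itself an interferon-induced gene, measured 10.8, 14.9 and 11.5 CPM in WT libraries and 13.6, 16.9 and 14.8 CPM in LSD1 KO libraries. The LSD1 KO library lay above the WT library of the same number in all 3 pairs, although WT replicate 2 exceeded the 2 lower LSD1 KO libraries. Mean levels of IRF7 were 12.4 ± 2.19 and 15.1 ± 1.72 CPM (SD, n = 3 each), with a two-sided exact permutation p of 0.3, where 3 libraries against 3 allow no p below 0.1. Its log2 fold change was 0.28 (SE 0.20, edgeR q value 0.999) without the block and 0.29 (SE 0.12, edgeR q value 0.368) with it. Some reads counted for IRF3 could come from elsewhere, since in the canonical transcript 14.2% of exonic bases lie opposite those of BCL2L12, and 21% of the 31-base words of its transcripts also occur in another gene, and whether the counting used strand is not given in the sources used here. BCL2L12, an antisense neighbour of the BCL2 family, had a log2 fold change of -0.25 (q value 0.999 from edgeR), and the sum of both genes was 125 ± 35.8 CPM in WT and 114 ± 22 CPM in LSD1 KO (SD, n = 3 each). IRF7 shared no such word with any gene.

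**Figure D3:**
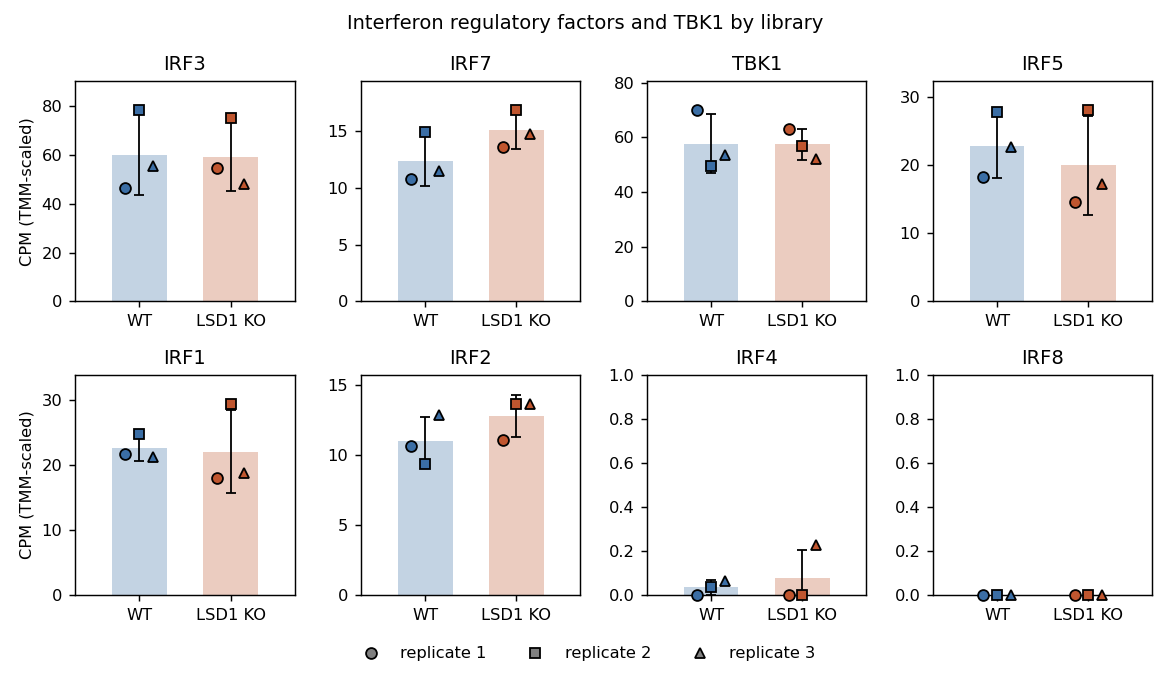
TMM-scaled CPM (y axis, own scale in each panel) of the 8 genes in the 3 WT (blue) and 3 LSD1 KO (orange) libraries, with bars at the mean, whiskers of 1 SD and a symbol for each replicate number. The groups overlap in every panel, replicate 2 is the highest library of both groups for IRF1, IRF3, IRF5 and IRF7, and IRF4 and IRF8 are at or near 0.

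IRF1 (chromosome 5, 132481609 to 132490773), the interferon gamma-induced activator of antigen presentation genes, measured 21.6, 24.8 and 21.2 CPM in WT libraries and 18.0, 29.4 and 18.7 CPM in LSD1 KO libraries. LSD1 KO replicate 2 was the highest of all 6 and the other 2 LSD1 KO libraries the lowest, so the spread was wider in LSD1 KO (22.0 ± 6.35 CPM) than in WT (22.5 ± 1.94 CPM, SD, n = 3 each), a difference in spread that was not tested. The log2 fold change of IRF1 was -0.031 (SE 0.22, 95% interval -0.54 to 0.48), and it ranged from -0.31 to 0.096 as each library was left out. Of the 31-base words of IRF1 transcripts, 25.2% also occur in another gene, and 19.8% occur in the antisense gene IRF1-AS1. That gene and the unnamed gene ENSG00000283782 share 16.3% of the canonical exonic bases of IRF1 on the other strand. ENSG00000283782 varied from 1.13 to 10.4 CPM between libraries. Added to IRF1, it gave 25.3 ± 2.59 CPM in WT and 28.6 ± 10.3 CPM in LSD1 KO (SD, n = 3 each, two-sided exact permutation p = 0.8), so this sum also did not separate the groups. IRF2 (chromosome 4, 184387729 to 184474550), which competes with IRF1, measured 10.7, 9.39 and 12.9 CPM in WT libraries and 11.1, 13.7 and 13.7 CPM in LSD1 KO libraries. It was higher in LSD1 KO in all 3 pairs, but by 0.062 and 0.08 on the log2 scale in pairs 1 and 3 and by 0.55 in pair 2. The fitted log2 difference of IRF2 was 0.22 (SE 0.21, 95% interval -0.25 to 0.70). IRF5 (chromosome 7, 128937032 to 128950038), a mediator of inflammatory cytokine induction, measured 18.2, 27.7 and 22.6 CPM in WT libraries and 14.5, 28.1 and 17.2 CPM in LSD1 KO libraries. Its means were 22.9 ± 4.77 and 20 ± 7.22 CPM (SD, n = 3 each), the highest and the lowest library were both LSD1 KO libraries, and the log2 fold change was -0.20 (SE 0.28, 95% interval -0.83 to 0.44). With the block it was -0.23 (SE 0.12, edgeR q value 0.468), lower in pairs 1 and 3 by 0.33 and 0.40 and higher in pair 2 by 0.021 on the log2 scale.

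Replicate 2 stood above replicates 1 and 3 in both groups for IRF1, IRF3, IRF5 and IRF7, and not for IRF2 and TBK1. On the log2 scale, replicate 2 exceeded the mean of replicates 1 and 3 by 0.21 in WT and 0.67 in LSD1 KO for IRF1, by 0.63 and 0.55 for IRF3, by 0.45 and 0.83 for IRF5 and by 0.42 and 0.26 for IRF7. TBK1 had -0.31 in WT and -0.012 in LSD1 KO, and IRF2 had opposite signs, with -0.32 in WT and 0.16 in LSD1 KO. For IRF1, IRF3 and IRF5 these distances were larger in both groups than the fitted difference between the groups. KDM1A, by comparison, differed by 0.013 and -0.064. The source of the replicate difference was not tested.

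IRF4 (chromosome 6, 391752 to 411443), a factor of B cells, plasma cells and T cells, was covered by 0, 1 and 2 counts in the WT group and by 0, 0 and 6 in the LSD1 KO group. IRF8 (chromosome 16, 85899162 to 85922609), a factor of monocytes and dendritic cells, had 0 counts in all 6 libraries. This allows up to 0.103 to 0.118 CPM in each, without the TMM factors. Neither gene passed edgeR's filter. DESeq2, which did test IRF4, gave a log2 fold change of 1.09 (q value 1), and with 9 counts in all a difference was not detectable at this depth. Of 8 partners with which they bind DNA or act, BATF was at 0 in every library, SPI1, which encodes PU.1, had between 0 and 3 counts, and 5 were tested. Of these 5, 0 had a q value under 0.1 or an unadjusted p under 0.05 in edgeR with or without the block, and DESeq2 called 0. SPIB had a log2 fold change of -0.25, IKZF3 of 0.46 and PRDM1 of 0.38. Of 13 B cell, T cell and myeloid markers, CD3E and TYROBP were at 0 in all libraries, PTPRC, which encodes CD45, had 3 counts in 1 library and 0 in the others, and MS4A1 had 1 count in 1 library. CD79B, a chain of the B cell receptor complex, had counts of 5, 6 and 4 in the WT group and of 7, 25 and 12 in the LSD1 KO group, which did not overlap, and DESeq2, which tested it, did not call it (q value 1). The CD14 counts were 0, 1 and 3 against 2, 8 and 3, and LYZ, an antibacterial enzyme gene, had a log2 fold change of 0.49 (edgeR q value 0.999). ITGAM went the other way, with counts of 15, 13 and 21 in WT and 19, 4 and 8 in LSD1 KO. Its log2 fold change was -0.63 (edgeR q value 0.999), and -0.76 with the block. CD79A had counts of 0, 10 and 2 in WT and 1, 6 and 0 in LSD1 KO. The summed level of the list was 19.3 to 24.3 CPM in WT and 30.8 to 44.1 CPM in LSD1 KO. This sum was made up largely of CD68, a lysosomal protein of many cell types, at 16.1, 19.6 and 17.8 CPM in WT and 32.6, 22.1 and 32.2 CPM in LSD1 KO (edgeR q value 0.993, and 0.132 with the block). Of the 13 markers, 4 were tested in edgeR. An unadjusted p under 0.05 was reached by 2 without and 2 with the block, beside 3.12% and 13.4% of all genes. With the block 1 rose and 0 fell at a q value under 0.1, beside 1.05% and 0.549% of all genes. The 1 was the integrin gene ITGAX, which rose by 1.43 on the log2 scale (edgeR q value 0.0251) and was not called without the block (q value 0.999). In bulk RNA, a change in the number of cells that express a gene and a change in RNA per cell cannot be told apart.

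Upstream of TBK1, IRF3 and IRF7, 15 of 17 listed adaptors and kinases were tested. Without the block, 0 passed and 2 had an unadjusted p under 0.05 in edgeR, beside 3.12% of all genes, and DESeq2 called 0. In the blocked model 4 had such a p, beside 13.4% of all genes. With the block 1 rose and 0 fell, beside 1.05% of all genes that rose and 0.549% that fell. The 1 was STING1, the membrane adaptor that recruits TBK1 after DNA sensing. It measured 17.7, 17.3 and 15.1 CPM in WT libraries and 22.9, 26.6 and 25.2 CPM in LSD1 KO libraries. All LSD1 KO libraries lay above all WT libraries, and the log2 fold change was 0.58 in both models, with an edgeR q value of 0.0856 with the block and 0.976 without it. Without the replicate 3 libraries, the blocked model called 0 genes of this list. TANK, a scaffold that binds TBK1, went the other way, with 70.3, 76.4 and 70.4 CPM in WT against 53.1, 62.4 and 53.2 CPM in LSD1 KO. Its groups also did not overlap, but its log2 fold change of -0.37 with the block did not pass (SE 0.087, edgeR q value 0.126). IRAK1, a kinase between MYD88 and IRF7, had a log2 fold change of -0.32 in both models and a q value of 0.178 with the block in edgeR. Its groups did not overlap either, at 96 to 102 CPM in WT and 71.6 to 87.6 CPM in LSD1 KO. Of the 15, 1 thus separated with LSD1 KO higher and 2 with it lower, beside 4.23% and 3.51% of all genes. The median of the 15 was 0.026 with the block, close to that of all genes.

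Of 10 genes for corepressors that bind IRF2 or for proteins that control IRF stability, all were tested. edgeR without the block and DESeq2 called 0, with 0 at an unadjusted p under 0.05 in edgeR. With the block 1 rose and 0 fell, beside 1.05% of all genes that rose and 0.549% that fell. IRF2BPL, a relative of the corepressors IRF2BP1 and IRF2BP2, measured 120, 206 and 187 CPM in WT and 204, 295 and 238 CPM in LSD1 KO, higher in each pair but overlapping between groups. It rose by 0.54 on the log2 scale with the block (SE 0.10, edgeR q value 0.0582), and had a q value of 0.999 without it. The blocked model without the replicate 1 libraries called 0 genes of this list. The ubiquitin ligase genes STUB1 and RBCK1 had log2 fold changes of -0.24 and 0.057. Listed inducers of IRF1 transcription were 8 genes, including the interferon gamma receptor, JAK1, STAT3 and NF-kappaB subunits. In edgeR without or with the block and in DESeq2, 0 of them passed. An unadjusted edgeR p under 0.05 was reached by 0 without the block and 3 with it, beside 3.12% and 13.4% of all genes. IFNGR1, a chain of that receptor, had a fitted log2 difference of 0.33 in the blocked model (edgeR q value 0.198), STAT3 of 0.26 and JAK1 of 0.22. The JAK1 groups did not overlap, at 79.9 to 99.1 CPM in WT and 99.3 to 114 CPM in LSD1 KO. JAK2, another kinase of the pathway, lay lower in LSD1 KO with groups that just did not overlap before rounding, at 15.2 to 19.5 CPM in WT and 14.7 to 15.2 CPM in LSD1 KO (log2 fold change -0.19 with the block, edgeR q value 0.559), and NFKB1 had -0.26. The median of the 8 was 0.12 in both models.

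Downstream of IRF3, 11 of 14 listed early response genes were tested. Without the block 0 passed the q value and 6 had an unadjusted p under 0.05 in edgeR, beside 3.12% of all genes. DESeq2 called 5 as lower, beside 0.370% of its genes in either direction. With the block 7 fell and 0 rose in edgeR, beside 0.549% of all genes that fell and 1.05% that rose. The lower level of several of these genes in LSD1 KO was known from earlier results of the same libraries when the list was made. Neither the count nor the median of the list is therefore independent evidence of direction. The 7 were IFIT1, IFIT2, IFIT3 and ISG15, effectors that act on viral RNA or proteins, OASL and HERC5, the latter the ligase of ISG15, and RIGI, a sensor of viral RNA. RIGI measured 37.1, 36 and 38.1 CPM in WT libraries and 17.7, 23.2 and 16.1 CPM in LSD1 KO libraries, and OASL 40.2, 42.9 and 39.9 CPM against 14.4, 26.3 and 16.1 CPM. For both, every LSD1 KO library lay below every WT library. With the block, edgeR gave log2 fold changes of -0.98 for RIGI (q value 0.0214) and -1.16 for OASL (q value 0.0196), from -1.16 for IFIT1 to -1.58 for IFIT2 among the IFIT genes, -0.75 for ISG15 and -0.51 for HERC5. Of the 7, ISG15 and HERC5 overlapped between the groups. ISG15 had the widest spread, with 212, 443 and 263 CPM in WT and 148, 258 and 136 CPM in LSD1 KO. Listed genes that did not pass included IFIH1, another RNA sensor (log2 fold change -0.50 with the block, edgeR q value 0.228), the chemokine gene CCL5 (-0.47), and ATF3 and PMAIP1, which had 0.07 and 0.27 without the block. The median of the 11, chosen with lower levels of several known, was -0.75 with the block. That of IRF3, IRF7, TBK1 and the other factors tested was -0.0036. Whether the genes downstream differed from the factors was not tested as a list.

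Interferon genes, some of which IRF3 and IRF7 induce directly, were at the edge of detection. Of 10 listed, 5 were at 0 in all libraries and 2 were tested. In edgeR without or with the block and in DESeq2, 0 passed. An unadjusted edgeR p under 0.05 was reached by 0 without the block and 1 with it, beside 3.12% and 13.4% of all genes. IFNB1, the classic target of IRF3, had counts of 2, 1 and 1 in the WT group and of 1, 0 and 0 in the LSD1 KO group. IFNL1, a type III interferon of epithelia, had counts of 28, 42 and 19 in the WT group and of 10, 24 and 4 in the LSD1 KO group. It was lower in each pair, with a log2 fold change of -1.37 with the block that did not pass (SE 0.43, edgeR q value 0.226). IFNL2 and IFNL3 are near-identical copies, so their counts were also summed, which gave 9, 35 and 37 in WT and 4, 27 and 10 in LSD1 KO. RSAD2, an antiviral enzyme gene of the early response list, had counts of 23, 15 and 9 in the WT group and of 0, 1 and 5 in the LSD1 KO group and was too low to be tested in edgeR.

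Downstream of IRF1, 17 of 22 listed genes of antigen presentation, guanylate binding proteins and related functions were tested. In edgeR 0 passed in either model, and DESeq2 called 0. An unadjusted edgeR p under 0.05 was reached by 1 without the block and 3 with it, beside 3.12% and 13.4% of all genes. IRF9, which this list also holds and which is described below, is among the 3. BST2, which tethers virus particles to the cell, measured 2.46, 3.07 and 1.26 CPM in WT and 4.51, 3.83 and 5.22 CPM in LSD1 KO. Its groups did not overlap, and its log2 fold change of 1.05 with the block had an edgeR q value of 0.219. CIITA, the activator of MHC class II genes, measured 2.76 to 3.18 CPM in WT and 3.02 to 5.72 CPM in LSD1 KO. The median of the list was 0.051 without and 0.024 with the block.

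**Figure D4:**
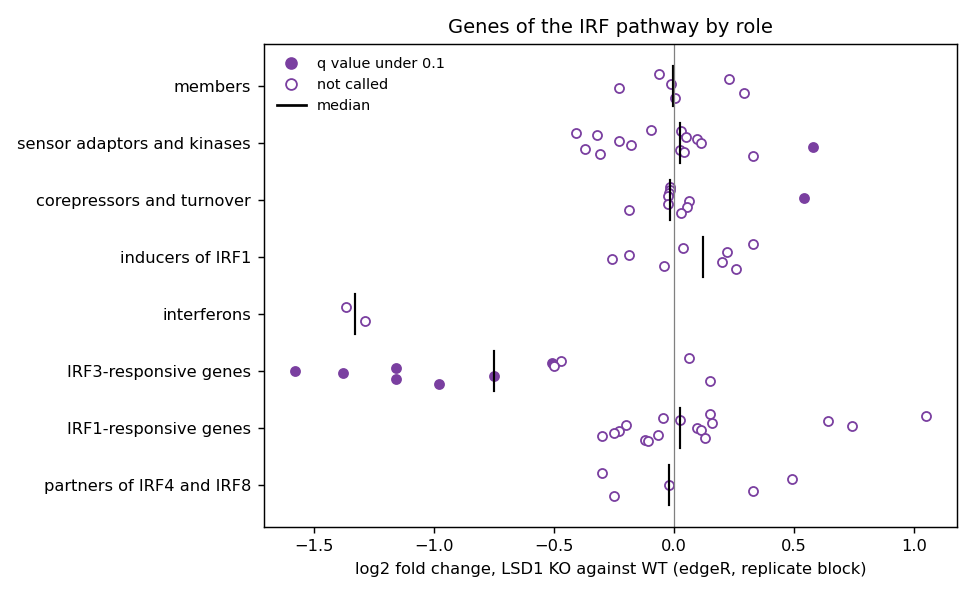
The log2 fold change of LSD1 KO against WT from edgeR with the replicate block (x axis) for each gene tested, grouped by role, with filled points for q values under 0.1 and a black line at each group's median. The factors and TBK1 scatter around 0 with no filled point, the adaptors and the corepressors hold 1 filled and positive point each (STING1 and IRF2BPL), the inducers have a median of 0.12, and 7 of the 11 IRF3-responsive genes are filled and negative, with a median of -0.75. The IRF3-responsive list was made with the lower level of several of its genes already known from these libraries.

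IRF9, a family member outside the 8 genes and the DNA-binding subunit of ISGF3, measured 4.23, 10.0 and 8.55 CPM in WT and 11.6, 12.7 and 12.1 CPM in LSD1 KO, with groups that did not overlap. Its log2 fold change was 0.67 (SE 0.31, edgeR q value 0.999) without the block and 0.74 (SE 0.22, edgeR q value 0.201) with it, while DESeq2 with the block called it. The unnamed gene ENSG00000259529 shares 93.1% of the canonical exonic bases of IRF9 on the same strand, and it measured 10.1, 1.63 and 4.74 CPM in WT and 6.65, 2.36 and 1.97 CPM in LSD1 KO. The WT library with the lowest IRF9 was the one with the highest value of that gene. Summed, both gave 14.3, 11.7 and 13.3 CPM in WT and 18.2, 15 and 14.1 CPM in LSD1 KO, which overlapped (two-sided exact permutation p = 0.2). How the counting divided reads between them was not tested. Genes that overlap or neighbour the members gave no call either, with 0 of 12 passing in edgeR without or with the block or in DESeq2. Without and with the block, 0 and 1 of these genes had an unadjusted edgeR p under 0.05, beside 3.12% and 13.4% of all genes. Among them, BCL2L12 and DUSP22 had log2 fold changes of -0.25 and -0.35.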

How the data were processed

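RNA-seq libraries of 3 WT and 3 LSD1 KO HCT116 samples were analysed. The authors trimmed reads with Trimmomatic 0.39, quantified them with Salmon 1.4.0 against GENCODE transcripts (GRCh38) and deposited expected counts per gene, given in whole numbers with no scaling to depth. Salmon divides reads that fit several genes, which can affect the overlapping genes named above. Symbols were matched by stable Ensembl identifier for 58395 of 60240 genes.

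Counts were compared with edgeR 4.0.16 in R 4.3.3 (TMM, filterByExpr, quasi-likelihood test, Benjamini-Hochberg over all 17672 genes tested, called at q under 0.1). DESeq2 1.42.0 was the other tool. Log2 values per library used a prior count of 2. Same-numbered WT and LSD1 KO libraries deviated together across genes (r = 0.553, 0.553 and 0.404, differently numbered -0.516 to 0.0454), and the number was used as the block. The sources used here do not say whether libraries of the same number were prepared together. Adding the block lowered the common biological coefficient of variation from 0.279 to 0.133. Lengths and shared words came from GENCODE v44lift37 on GRCh37, sequences and positions from RefSeq on GRCh38.p14. Figures used Python 3.11.15 and matplotlib 3.10.9.

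The members and lists were chosen with earlier results of these data known. All members, KDM1A and IRF9 were named, and in each list the genes called, or those of smallest p with at least 1 CPM until 3 were named. Others (IFIH1, CCL5, ATF3, PMAIP1, RSAD2, CDX2, KRT19, CLDN4, CDH1, JAK2, NFKB1, ITGAM, CD79A and the unnamed genes) were named after their values were seen. Some genes that the rule takes are not reported here. Steps were tested on simulated data.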

Additional observations from a re-analysis of the deposited data

How the results depend on the processing

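The count of the 8 genes called stayed at 0 under all 18 alternatives, which were other size factors, filters and thresholds, DESeq2, the replicate block, leaving out single libraries, leaving out replicate 2 of both groups, and, chosen after seeing the data, the block without 1 replicate number at a time. In 9 of these 18 only 1 gene was called over all genes, KDM1A, so a count of 0 was nearly given there. The lowest q value any of the 8 genes reached was 0.127, for IRF5. IRF2, IRF5 and IRF7 kept their direction under all of these, from 0.053 to 0.36, from -0.55 to -0.012 and from 0.17 to 0.43 on the log2 scale. IRF1, IRF3 and TBK1 did not. As each library was left out, their log2 fold changes ranged from -0.31 to 0.096, from -0.24 to 0.22 and from -0.11 to 0.16. Without replicate 2 of both groups, that of TBK1 was -0.12. With the replicate block TBK1 was at 0.0042, in DESeq2 with the block at 0.00015, and with the block but without replicate 1 or 3 at 0.082 or 0.028. With the block, IRF1 without replicate 1 was at 0.037 and IRF3 without replicate 3 at 0.09. The cause was not tested.

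Counts over all genes moved from 1 to 114 with no filter, 95 in DESeq2, 282 with the replicate block, 593 in DESeq2 with the block, 22 without replicate 2 of both groups and 1 to 26 as single libraries were left out, the 26 without LSD1 KO replicate 2. With the block they were 428, 1055 and 198 without replicates 1, 2 and 3. IRF3-responsive genes called moved from 0 to 5 with no filter and in DESeq2, 7 with the block and in DESeq2 with the block, 3 without replicate 2, and 0 to 3 as single libraries were left out. With the block they were 6, 8 and 7 without replicates 1, 2 and 3. IRF9 was 1 gene called in DESeq2 with the block and with the block without replicate 2. Adaptors and kinases called were 1 with the block, 2 in DESeq2 with the block, and 1 and 3 with the block without replicates 1 and 2. Corepressors and turnover genes called were 1 with the block, in DESeq2 with the block, and with the block without replicate 2 or 3. IRF1-responsive genes called were 1 in DESeq2 with the block and 3 with the block without replicate 2. That list also holds IRF9, so calls of IRF9 are counted in both places. Epithelial markers called were 2 with no filter and in DESeq2 (1 higher and 1 lower in each), 2 in DESeq2 with the block (both higher), 1 with the block (lower), and 2, 4 and 2 with the block without replicates 1, 2 and 3. Leukocyte markers called, of 13 listed, were 1 with the block, 2 in DESeq2 with the block, and 1, 2 and 1 with the block without replicates 1, 2 and 3. The block changed no other call. With the longest transcript as the length, levels were 4.32 for IRF1, 2.64 for IRF2, 20.8 for IRF3, 4.07 for IRF5 and 9.68 CPM per kb for TBK1.

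With 3 libraries a group, no exact permutation p falls below 0.1, and the 95% intervals of the members reach from 0.563-fold, for IRF5, to 1.68-fold, for IRF7. IRF4 and IRF8 lie at the limit of the depth. Groups of 3 were too small for a test of single outlying libraries.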

Other observations

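Of the 9 epithelial markers tested, edgeR called 0 without the block. With it 1 fell and 0 rose, beside 0.549% and 1.05% of all genes. EPCAM, a surface adhesion protein of epithelia, fell with the replicate block, from 191, 248 and 173 CPM in WT to 134, 77.6 and 101 CPM in LSD1 KO (log2 fold change -0.98, SE 0.20, edgeR q value 0.0788), a call also made by DESeq2 without the block (q value 0.0516) but not by edgeR without the block (q value 0.668). ELF3, an epithelial transcription factor, measured 23.9, 52.4 and 39.0 CPM in WT and 98.4, 60.2 and 129 CPM in LSD1 KO, and passed in DESeq2 (q value 0.0357) but not in edgeR with the block (q value 0.117). DESeq2 with the block called 2 epithelial markers, both higher in LSD1 KO, and so did not call EPCAM as lower. For EPCAM and ELF3 every LSD1 KO library lay on one side of every WT library, and KRT18 also did not overlap, at 396 to 667 CPM in WT and 348 to 375 CPM in LSD1 KO (log2 fold change -0.47 with the block, edgeR q value 0.23). Of the 9 tested, 1 thus separated with LSD1 KO higher and 2 with it lower, beside 4.23% and 3.51% of all genes. With the block, 7 of the 9 epithelial markers tested had an unadjusted p under 0.05 in edgeR, beside 13.4% of all genes, and they went both ways, with log2 fold changes of 0.45 for KRT19, 0.34 for CLDN4 and -0.34 for CDH1, none of which passed the q value. The summed level of the 12 epithelial markers overlapped between the groups, at 2165 to 4042 CPM in WT and 2648 to 3437 CPM in LSD1 KO.

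For each member with at least 1 CPM, the gene whose log2 CPM followed it most closely over the 6 libraries was DDOST for IRF1 (Pearson's r = 0.9950), RAB11FIP5 for IRF2 (0.9971), ZNF23 for IRF3 (0.9975), RTN4 for IRF5 (0.9971), GKAP1 for IRF7 (0.9944) and CDC27 for TBK1 (0.9883). These were the highest of 14799 genes compared, all points share the 6 libraries and their replicate numbers, and the gene ranked 100 still had an r of 0.918 to 0.975, so the choice of 1 gene over the next is a description of these libraries.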
